A study of Mus musculus with 17 samples.

Results

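Skin taken 9 days after injury from irradiated C57/BL6j mice was set against control skin at day 0 to ask which tissue programmes were back at the starting level. The labels give 3 irradiated day 9 libraries, of mice treated with ionizing radiation, and 2 control day 0 libraries, with no irradiation, out of 17 libraries in the series. Members were the genes with at least 1 FPKM (fragments per kilobase of transcript, scaled to the depth of the library) in at least 2 of these 5 libraries, which took 14152 of 34140 genes. Gvin1 stood just inside that limit, with a second-highest value of 1.002 FPKM, and Arhgap15 just outside it, with 0.9997 FPKM. The other groups used for comparison, of the same strain, were irradiated day 3 (3 libraries), irradiated day 6 (2) and control day 9 (3). The labels state neither the dose, field and time of irradiation nor whether day 0 skin had been cut, and they do not say that each library came from its own animal. The p-values therefore measure the spread between libraries within groups, pooled over all 17 libraries, and that spread may be technical in part. No irradiated library was taken at day 0, so radiation, injury and elapsed time cannot be told apart in the difference between irradiated day 9 and control day 0. In bulk skin, fewer cells of a type and less RNA per cell cannot be told apart either.

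A skin wound is closed by keratinocytes that leave the basal layer, switch on stress keratins and cover the gap, while macrophages, new vessels and matrix-making fibroblasts fill the dermis below. Transforming growth factor beta (TGF-beta) is released from a latent complex, binds a pair of receptor kinases and signals through SMAD2 and SMAD3 with SMAD4 to collagen and other matrix genes, with SMAD7 as a feedback inhibitor. Ionizing radiation breaks DNA, which activates the transcription factor p53 and can stop dividing cells, and DNA leaking from damaged cells can start a type I interferon response.

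For 2 programmes that were above day 0 in irradiated day 9 skin, the start-site regions of named genes are shown because known regulators of these programmes read short words in them. The 250 bases before the start site are from RefSeq on GRCm38.p6, written 5′ to 3′ on the gene's strand. Ifit1 (chr19:34640639-34640888, plus strand) and Ifit3 (chr19:34583279-34583528, plus strand) encode interferon-induced proteins that hold back viral RNA. Capitals mark the core of the interferon-stimulated response element, which is GAAA, then 2 bases of any kind, then GAAA, on either strand.
Ifit1: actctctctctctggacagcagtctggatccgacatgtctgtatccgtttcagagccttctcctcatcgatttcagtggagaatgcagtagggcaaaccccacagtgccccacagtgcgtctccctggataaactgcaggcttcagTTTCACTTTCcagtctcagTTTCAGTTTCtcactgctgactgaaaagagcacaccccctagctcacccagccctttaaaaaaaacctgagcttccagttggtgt
Ifit3: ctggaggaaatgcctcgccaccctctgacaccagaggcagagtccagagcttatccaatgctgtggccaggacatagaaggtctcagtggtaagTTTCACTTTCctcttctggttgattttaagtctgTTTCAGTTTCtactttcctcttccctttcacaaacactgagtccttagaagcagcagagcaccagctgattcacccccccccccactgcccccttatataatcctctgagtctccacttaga
That core was present in 9 of the 19 interferon-induced genes that had a start-site region in the table, or 47.4%, against 936 of 27025 genes with a region of the same length, or 3.46%. Mcm5 (chr8:75109259-75109508, plus strand), a subunit of the helicase that opens DNA for replication, and Top2a (chr11:99024190-99024439, minus strand), the topoisomerase that untangles chromosomes before division, are cell cycle genes. Capitals mark CCAAT, the word bound by the factor NF-Y, on either strand.
Mcm5: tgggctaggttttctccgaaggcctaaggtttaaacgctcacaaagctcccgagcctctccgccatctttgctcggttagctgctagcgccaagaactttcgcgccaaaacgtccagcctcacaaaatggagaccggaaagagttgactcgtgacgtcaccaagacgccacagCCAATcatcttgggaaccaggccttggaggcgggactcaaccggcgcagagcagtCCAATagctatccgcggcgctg
Top2a: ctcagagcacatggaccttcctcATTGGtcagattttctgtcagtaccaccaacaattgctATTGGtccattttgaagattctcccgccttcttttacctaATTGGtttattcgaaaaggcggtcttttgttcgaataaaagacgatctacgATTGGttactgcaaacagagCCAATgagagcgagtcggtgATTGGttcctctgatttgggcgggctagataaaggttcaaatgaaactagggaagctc
Of the 32 cell cycle genes listed, 27 had a start-site region. CCAAT stood in 23 of these 27, or 85.2%, against 10133 of all 27025 genes, or 37.5%. A second word searched for, TTTGAAA, stood in 4 of the 27, or 14.8%, against 1809 of all 27025 genes, or 6.69%. A match describes the letters and shows no binding.

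The libraries held 25440773 to 30797409 assigned fragments, and the 5 of this comparison 25440773 to 29835196. Day 0 stood apart from every other group in muscle and mitochondrial RNA. Genes of mature skeletal muscle summed to 7.16% and 6.73% of all FPKM at day 0, against 0.541% to 1.10% at irradiated day 9 and 0.586% to 1.82% in the other 12 libraries. RNA encoded by mitochondria made up 31.84% and 21.73% of the summed FPKM at day 0 and 8.33% to 8.84% at irradiated day 9. The part of either in the results below was not tested. The keratinocyte genes Krt14 and Krt10 were abundant in all 5 libraries, where the lowest value of either was 444 FPKM.

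**Figure D1:**
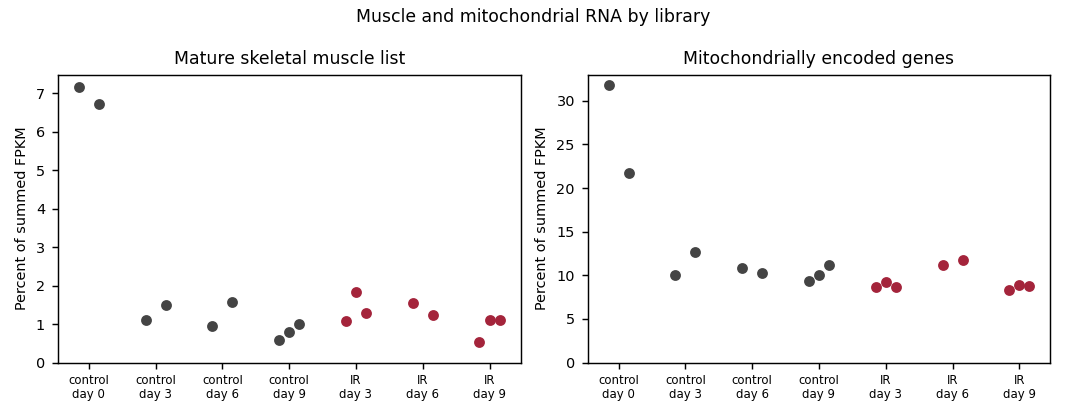
Share of summed FPKM, in percent, taken by the mature skeletal muscle list (left) and by mitochondrially encoded genes (right). Each point is 1 library, grey for control and red for irradiated (IR). The 2 day 0 libraries lie at 7.16% and 6.73% on the left and at 31.84% and 21.73% on the right, above all other libraries.

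Of the 14152 genes, 7032 (49.7%) passed at an adjusted p under 0.05 by limma with Benjamini-Hochberg adjustment, 4488 of them higher in irradiated day 9 skin (31.7% of genes tested) and 2544 lower (18.0%). Differences are on the log2(FPKM + 1) scale, irradiated day 9 minus control day 0, which understates low genes. A gene under 1 FPKM in at least 1 day 0 library met the filter only with the help of irradiated day 9. A higher call for such a gene, among them Rptn, Areg, Mmp12, Saa3 and Mlana, is therefore a description. At 1 log2 or more, 1286 genes were higher (9.09%) and 812 lower (5.74%). A gene is called near day 0 here where it did not pass and its whole 95% confidence interval lay within 1 log2 of no difference, which held for 5854 genes (41.4%), and the remaining 1266 genes were not resolved. List counts below are to be set beside 31.7% higher, 18.0% lower and 41.4% near day 0 over all genes. The lists were chosen with earlier results of these data known, so a list count beside its background is a description, not an independent test. The 3 irradiated day 9 libraries and the 2 day 0 libraries did not overlap for 9279 genes (65.6%). The split depends on how libraries are scaled: the median difference over all genes was 0.15 as deposited and 0.03 when FPKM was rescaled to nuclear genes, where 3092 genes were higher and 3119 lower. Rescaled without both mitochondrial and muscle genes, the median was -0.08, with 2347 higher and 3945 lower. By the same test, 632 genes differed between irradiated day 9 and control day 9 (4.47% of 14152). Of these, 316 were higher (2.23%) and 316 lower (2.23%) in irradiated skin. The day 0 level does not enter that difference, but day 0 libraries helped to decide which genes were tested, and control day 9 libraries did not. The split was 179 higher and 355 lower with no filter on low values (34140 genes). It was 231 and 467 when rescaled to nuclear genes, and 362 and 716 after quantile normalization. Between irradiated days 9 and 3, 131 genes differed (0.926%), 58 of them higher at day 9 (0.410%) and 73 lower (0.516%).

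**Figure D2:**
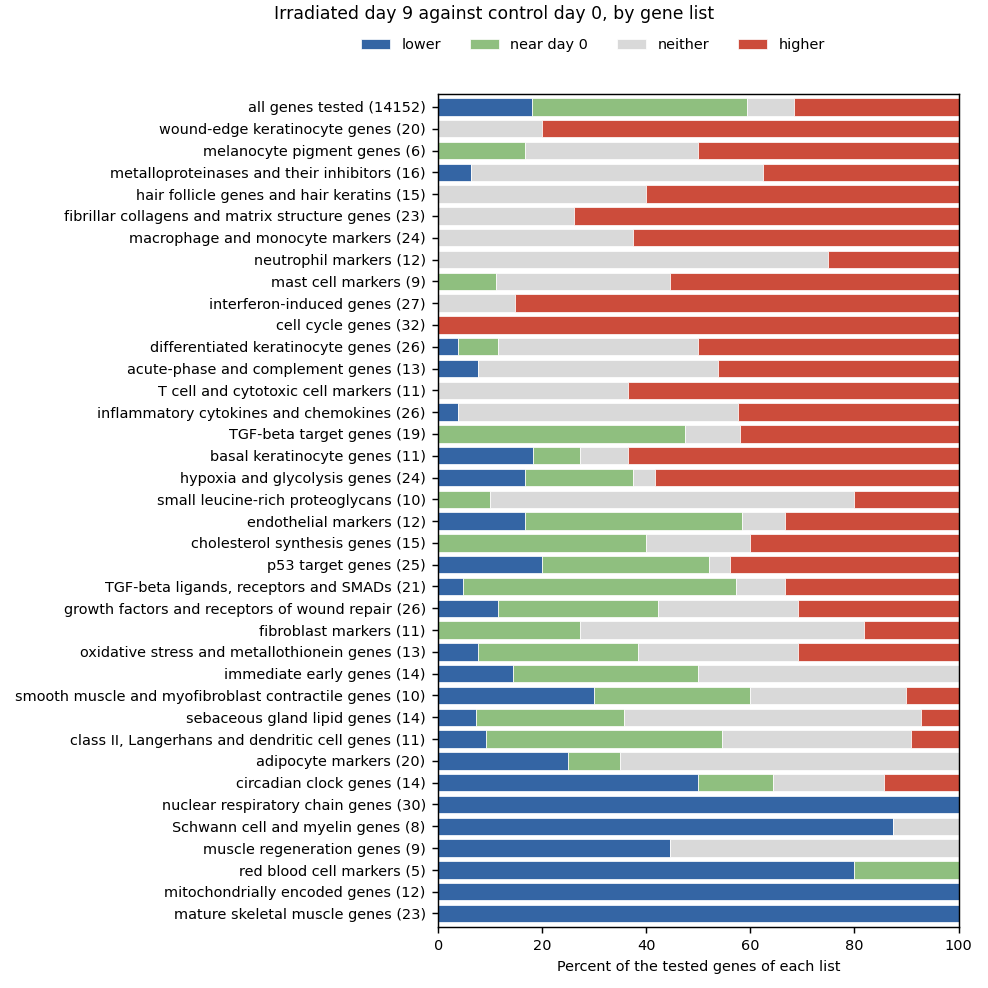
Share of the tested members of each gene list (number in brackets) that were lower, near day 0, neither passing nor near, or higher at irradiated day 9 against control day 0. The top bar gives all 14152 genes, of which 31.7% were higher, and the lists run from the highest median difference to the lowest.

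Many genes of the TGF-beta pathway were near day 0, while its main ligand was not. Of 21 ligands, receptors, SMADs and their partners, 11 were near day 0 (background 41.4%), 7 higher (background 31.7%) and 1 lower, shares not far from those of all genes. The median was 0.22, and -0.04 when rescaled without mitochondrial and muscle genes, where 4 were higher. Tgfb1, the main ligand of the wound, had 4.78 and 11.1 FPKM at day 0 and 20.4, 16.4 and 17.7 FPKM at irradiated day 9. Its groups did not overlap, the difference was 1.19 ± 0.30 (SE) and the adjusted p was 0.00556. Tgfb2 (difference -0.21, 95% interval -0.60 to 0.18) and Tgfb3 (0.19, -0.44 to 0.81), the other ligands, were both near day 0. Tgfb3 had 6.98 and 14.4 FPKM at day 0 and 11.1, 12.1 and 11.7 FPKM at irradiated day 9, so the irradiated values lay between the day 0 values. Among receptors, the signalling kinase Tgfbr1 was near day 0 (-0.21 to 0.68), as was the co-receptor Tgfbr3 (-0.39 to 0.75), and the ligand-binding kinase Tgfbr2 passed (0.87 ± 0.30, adjusted p = 0.0317). Without the first day 0 library the Tgfbr2 difference was 0.27 (adjusted p = 0.47), and rescaling to nuclear genes gave an adjusted p of 0.091.

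The 2 signal-carrying SMADs moved in opposite directions. Smad2 had 7.14 and 7.79 FPKM at day 0 and 12.1, 13.4 and 13.3 FPKM at irradiated day 9, a difference of 0.72 ± 0.09 (adjusted p = 8.3e-05). Smad3 had 9.75 and 13.2 FPKM at day 0 and 5.65, 6.23 and 6.63 FPKM at irradiated day 9, a difference of -0.79 ± 0.14 (adjusted p = 5.7e-04). Neither gene's groups overlapped. The shared partner Smad4 was level, with 15.05 and 17.4 FPKM at day 0 and 16.9, 16.1 and 15.7 FPKM at irradiated day 9 (95% interval of the difference -0.25 to 0.25). The feedback inhibitor Smad7 was near day 0 (0.44, 0.03 to 0.84), and Smurf1, a ligase that removes receptors and SMADs, was higher (0.87 ± 0.14, adjusted p = 4.0e-04). Of 19 genes known as TGF-beta targets, 8 were higher (background 31.7%), none lower and 9 near day 0 (background 41.4%). Tgfbi, a secreted adhesion protein, and Ski, a repressor of SMADs, were near day 0 with differences of 0.41 (-0.03 to 0.85) and 0.25 (-0.03 to 0.52). Against control day 9, Tgfb2 was the 1 pathway member that differed, lower in irradiated skin (-0.90 ± 0.16, adjusted p = 0.0131), a call lost without the second control (0.0575) or the third irradiated day 9 library (0.066). Without the first day 0 library, Tgfb1 had an adjusted p of 0.1, and 2 pathway members and 3 targets were higher. Without the second, 11 pathway members were higher, Tgfbr1 (adjusted p = 0.0019) and Tgfbr3 (0.04) among them, and Tgfb3 and Smad7 were no longer within the bound.

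Genes that p53 switches on did not move as a block. Of 25, 11 were higher (background 31.7%), 5 lower (background 18.0%) and 8 near day 0 (background 41.4%), with a median of 0.28. Those shares were not far from those of all genes, and 2 of the 25 had under 1 FPKM in both day 0 libraries. Cdkn1a, the inhibitor that stops the cell cycle, had 79.1 and 136 FPKM at day 0, 204, 207 and 204 FPKM at irradiated day 3 and 140.5, 127 and 133.8 FPKM at irradiated day 9. The irradiated day 9 values overlapped those of day 0 and the 95% interval was -0.10 to 0.82. Mdm2, the ligase that degrades p53, had 11.4 and 20.03 FPKM at day 0, 21.5, 21.8 and 21.05 FPKM at irradiated day 3 and 14.9, 14.03 and 14.5 FPKM at irradiated day 9, an interval of -0.44 to 0.31. Rps27l, a ribosomal protein copy under p53, was near day 0 as well (-0.30 to 0.09). Ccng1, a cyclin that is a long-known p53 target, was below day 0, with 156 and 158 FPKM there and 80.6, 72.97 and 73.2 FPKM at irradiated day 9 (-1.04 ± 0.14, adjusted p = 9.8e-05). Eda2r, a death-domain receptor, was also lower (-1.26 ± 0.31, adjusted p = 0.00529). Higher members were Pmaip1, which encodes the cell death protein NOXA (2.91 ± 0.31, adjusted p = 2.6e-05), and Psrc1, a spindle protein (1.56 ± 0.14, adjusted p = 1.1e-05).

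Set against control skin at day 9, 6 of the 25 p53 targets were higher in irradiated skin (background 2.23%) and none lower. Cdkn1a differed by 1.14 ± 0.19 (adjusted p = 0.0105), Ccng1 by 0.82 ± 0.12 (adjusted p = 0.00819) and Psrc1 by 0.82 ± 0.13 (adjusted p = 0.00859). Cdkn1a thus lay near day 0 and above control skin of the same day, which had 51.9, 54.3 and 77.1 FPKM, a call lost without the second control (adjusted p = 0.0647) or the third irradiated day 9 library (0.0553). Without the second day 0 library Cdkn1a passed against day 0 (0.75, adjusted p = 0.01), Eda2r did not (adjusted p = 0.077) and 2 p53 targets were lower; without the first, Mdm2 was lower (-0.44, adjusted p = 0.019).

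**Figure D3:**
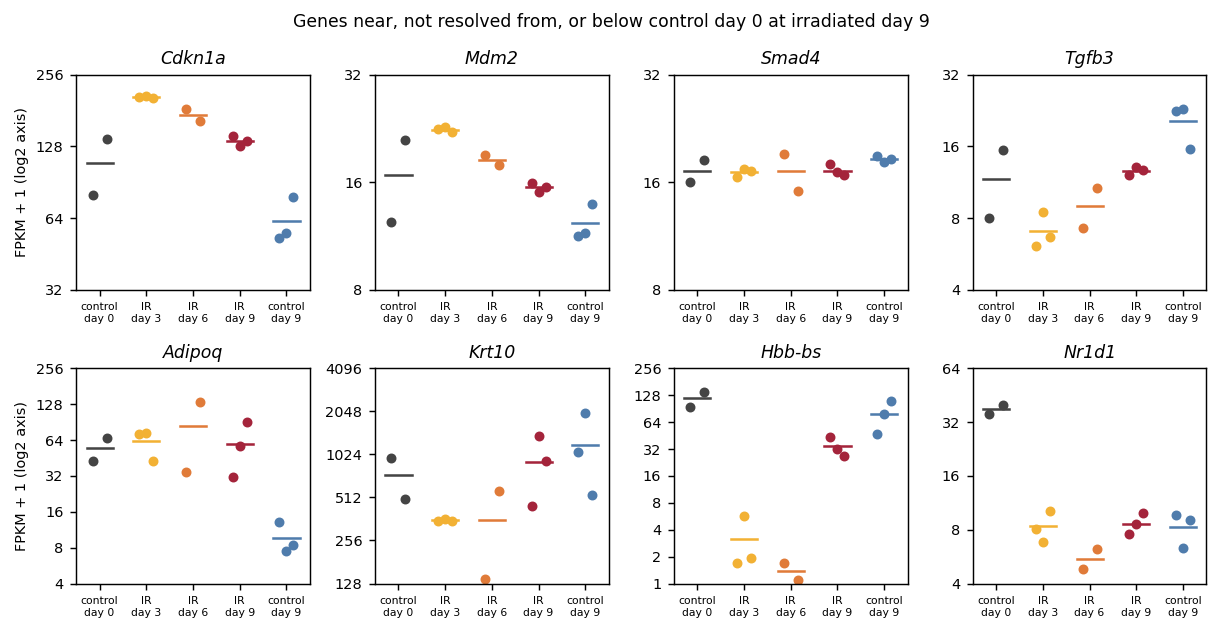
FPKM + 1 on a log2 axis for 8 genes in control day 0, irradiated (IR) days 3, 6 and 9 and control day 9, 1 point per library with a line at the mean. Cdkn1a, Mdm2, Smad4 and Tgfb3 are near day 0 at irradiated day 9, Adipoq and Krt10 were not resolved from it, and Hbb-bs and Nr1d1 lie below it.

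Among markers of vessels, fat and sebaceous glands, 5 of 12 endothelial, 2 of 20 adipocyte and 4 of 14 sebaceous genes were near day 0, against 41.4% of all genes. Of the 12 endothelial genes, 4 were higher and 2 lower. Pecam1, an adhesion molecule of endothelial junctions, had 18.7 and 21.8 FPKM at day 0 and 31.9, 23.5 and 27.5 FPKM at irradiated day 9 (interval 0.03 to 0.81), and Esam, another junction protein, an interval of -0.43 to 0.36. Cldn5, the claudin of tight endothelial junctions, was lower (-0.57 ± 0.10, adjusted p = 5.9e-04), and Emcn, a sialomucin of veins and capillaries, was higher (0.90 ± 0.20, adjusted p = 0.00283). Pecam1 passed without the second irradiated day 9 library (adjusted p = 0.041), and its interval left the bound without the second day 0 library. The higher endothelial count was 1 without the first day 0 library or when rescaled to nuclear genes, and 2 without the third irradiated day 9 library. Of 11 fibroblast markers 2 were higher (background 31.7%) and 3 near day 0 (background 41.4%), and none was lower.

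Of 20 adipocyte markers, none was higher, 5 were lower and 2 near day 0. Adipoq, the fat hormone adiponectin, had 41.8 and 66.2 FPKM at day 0, 30.3, 55.7 and 89.9 FPKM at irradiated day 9 and 12.2, 6.496 and 7.42 FPKM at control day 9. The day 0 and irradiated day 9 values overlapped, but the interval of -1.21 to 1.25 was too wide to place the gene within the bound. Compared with control day 9, the Adipoq difference was 2.53 ± 0.51 (adjusted p = 0.0203), and it did not pass without the second control library or without the second or the third irradiated one (adjusted p up to 0.0988). The transcription factors of fat cells Cebpa (interval -0.45 to 0.65) and Pparg (-0.72 to 0.60) were near day 0. Car3, a carbonic anhydrase of fat and slow muscle, was lower (-2.10 ± 0.58, adjusted p = 0.0105), and so was Slc2a4, the insulin-responsive glucose transporter of fat and muscle (-2.36 ± 0.32, adjusted p = 1.2e-04). The lower members include genes that muscle also expresses, and muscle RNA was lower in the same libraries. The median of the adipocyte list was -0.38 at irradiated day 9 and -1.53 at control day 9. Of the 20 members, 4 were higher in irradiated than in control day 9 skin (background 2.23%). That count was 0 without the second control day 9 or the third irradiated day 9 library, 1 without the second irradiated, 2 without the first control library or the third, and 8 without the first irradiated library. Between 2 and 8 adipocyte markers were below day 0 when each library was left out in turn: 2 without the first library of either group, 3 without the second day 0 library and 8 without the third irradiated one. Car3 then had an adjusted p of 0.0545 without the first day 0 library, and the Pparg interval left the bound.

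Sebaceous gland lipid genes were 1 higher, 1 lower and 4 near day 0 of 14, with Mgst1, a microsomal glutathione transferase, at 83.4 and 119 FPKM at day 0 and 86.4, 92.1 and 99.5 FPKM at irradiated day 9 (interval -0.54 to 0.32). Cholesterol synthesis genes were 6 higher (background 31.7%), none lower and 6 near day 0 (background 41.4%) of 15. Sqle, squalene epoxidase, was higher (1.54 ± 0.26, adjusted p = 5.3e-04), while Hmgcs1, which starts the pathway, was near day 0 (-0.31 to 0.90). Without the first library of either group the Hmgcs1 interval left the bound and 2 sebaceous genes were near day 0. Cholesterol genes were 2 near day 0 without the first day 0 library, and 10 near and 3 higher when rescaled without mitochondrial and muscle genes.

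Class II antigen-presentation and dendritic cell genes were divided against day 0, and 6 of 11 lay below control day 9. Against day 0, 1 was higher, 1 lower, 5 near day 0 (background 41.4%) and 4 unresolved, with a median of -0.31, and 2 or 3 were near day 0 without a library of either group other than the first irradiated one. H2-Aa, a class II chain that presents peptides to helper T cells, had 61.2 and 87.5 FPKM at day 0, 24.9, 57.1 and 31.6 FPKM at irradiated day 9 and 145, 173 and 363 FPKM at control day 9. All 3 irradiated values lay below day 0, and all control day 9 values above it. Its difference from day 0 was -1.02 ± 0.38 (adjusted p = 0.0398) and from control day 9 -2.52 ± 0.34 (adjusted p = 0.00563). In the comparison with control day 9, 6 of the 11 genes were lower in irradiated skin (background 2.23%) and none higher, and 3 were lower without the third irradiated library. The chaperone H2-DMb1 was near day 0 (-0.50 to 0.74), and Itgax, the integrin CD11c of dendritic cells and some macrophages, was higher (1.91 ± 0.39, adjusted p = 0.00187). The H2-Aa call against day 0 was lost without either day 0 library (adjusted p = 0.06 and 0.21) or without the first or the third irradiated day 9 library (0.13 and 0.096), and the H2-DMb1 interval left the bound without the second day 0 library.

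Of 13 oxidative stress genes, 4 were higher (background 31.7%), 1 lower (background 18.0%) and 4 near day 0 (background 41.4%). Gpx1, a glutathione peroxidase, had 163 and 210.3 FPKM at day 0 and 381, 363 and 397 FPKM at irradiated day 9 (1.03 ± 0.17, adjusted p = 4.4e-04). Hmox1, the enzyme that breaks down heme, was higher by 1.46 ± 0.28 (adjusted p = 0.00112), and Sod1, the cytosolic superoxide dismutase, was lower (-0.99 ± 0.17, adjusted p = 6.6e-04). Srxn1, which restores oxidized peroxiredoxins, was near day 0 (-0.31 to 0.29). Of 14 immediate early genes, none was higher, 2 were lower and 5 near day 0, the last 2 shares both below those of all genes. Jun, an AP-1 subunit, had 43.3 and 53.02 FPKM at day 0 and 35, 38.7 and 37.4 FPKM at irradiated day 9 (interval -0.69 to -0.04), and the orphan receptor Nr4a1 was lower (-1.37 ± 0.40, adjusted p = 0.0139). Rescaled to nuclear genes, Jun was lower too (-0.51, adjusted p = 0.02). Once the first day 0 library was left out, Jun passed (adjusted p = 0.0495) and Nr4a1 did not (0.13), no early gene was near day 0, and without the first irradiated library 2 were.

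Wound-edge keratinocyte genes had the highest median difference of the 38 lists. Of 20 wound-edge keratinocyte genes, 16 were higher and none lower, with a median of 2.67. Krt16, a stress keratin, had 94.4 and 24.6 FPKM at day 0 and 2650.5, 2766 and 3065 FPKM at irradiated day 9 (5.84 ± 0.62, adjusted p = 2.4e-05). Krt6a and Krt6b, its pairing partners, differed by 4.77 ± 0.50 (adjusted p = 2.2e-05) and 7.03 ± 0.54 (adjusted p = 5.4e-06). These 2 copies are near-identical, so reads may be split between them. Krt16 at irradiated day 3 had 3225, 2068 and 2940.0 FPKM, on both sides of the irradiated day 9 values, and control day 9 had 2237, 873 and 1380.4 FPKM. The irradiated and control day 9 groups did not differ for Krt16 at the threshold (1.02 ± 0.55, adjusted p = 0.3). Sprr1b, a cross-linked precursor of the cornified envelope, was higher by 5.38 ± 0.59 (adjusted p = 3.0e-05), and Sprr2d by 7.98 ± 1.02 (adjusted p = 7.5e-05), the largest difference among the named genes; the Sprr2 copies are also alike and may share reads. Areg, an EGF receptor ligand, had 2.72 and 0.524 FPKM at day 0 and 17.6, 10.1 and 11.3 FPKM at irradiated day 9, and its adjusted p rose from 0.00501 to 0.058 without the second day 0 library.

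Basal and differentiated layers were split. Of 11 basal keratinocyte genes, 7 were higher and 2 lower. Krt14, the basal keratin, had 1099 and 600.5 FPKM at day 0 and 9672, 8320.0 and 8909.6 FPKM at irradiated day 9 (3.46 ± 0.47, adjusted p = 1.1e-04). Dsg3 and Cdh3, adhesion molecules of basal cells, were higher by 2.74 ± 0.32 (adjusted p = 3.9e-05) and 1.75 ± 0.32 (adjusted p = 8.1e-04). Krt15, a keratin of resting basal cells and the hair bulge, went the other way, with 945 and 628 FPKM at day 0 and 54.4, 213 and 169.7 FPKM at irradiated day 9 (-2.61 ± 0.66, adjusted p = 0.00637). Of 26 differentiated keratinocyte genes, 13 were higher, 1 lower and 2 near day 0. Rptn, repetin of the granular layer, had 0.958 and 1.44 FPKM at day 0, 84.5, 53.97 and 52.8 FPKM at irradiated day 3 and 433, 539.9 and 386 FPKM at irradiated day 9, so it was above day 0 (7.68 ± 0.46, adjusted p = 2.6e-06) and above irradiated day 3 (2.83 ± 0.41, adjusted p = 0.0127). Lce3c, a late envelope protein of repair (4.53 ± 0.48, adjusted p = 2.5e-05), Casp14, a caspase of cornification (3.39 ± 0.46, adjusted p = 1.1e-04), and Dsc1, a desmocollin of upper layers (2.61 ± 0.46, adjusted p = 6.4e-04), were higher. Krt10, the keratin of suprabasal cells, had 973 and 501 FPKM at day 0 and 444, 1367 and 922 FPKM at irradiated day 9, with the day 0 values inside the irradiated range and an interval of -1.30 to 1.78, so it was not resolved. Without the second day 0 library 3 basal genes were higher, without the third irradiated day 9 library or rescaled to nuclear genes 4, and Krt15 had an adjusted p of 0.058 without the first day 0 library. The difference of Rptn from irradiated day 3 passed in 3 of the 6 comparisons that left out 1 library.

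**Figure D4:**
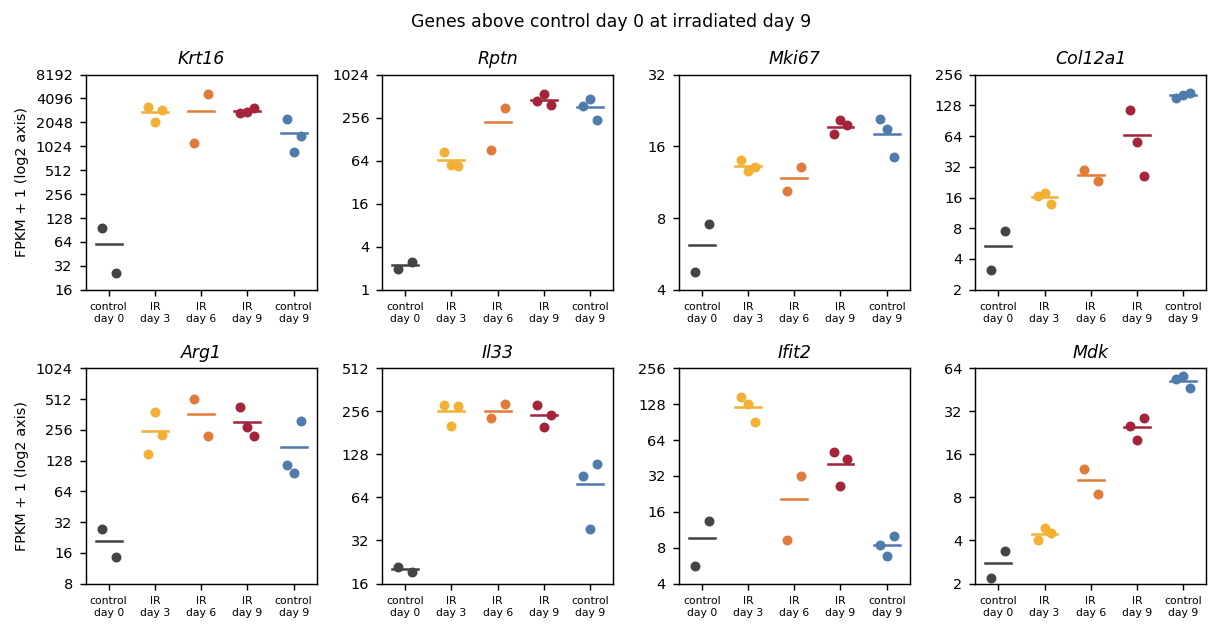
FPKM + 1 on a log2 axis for 8 genes that passed as higher than day 0 at irradiated day 9, 1 point per library with a line at the mean. IR marks irradiated groups. The 3 irradiated day 9 points of each gene lie above both day 0 points, and control day 9 lies lower for Il33 and Ifit2 and higher for Mdk. Krt16 lies lower at control day 9 too, although its irradiated and control day 9 groups did not differ at the threshold.

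Division genes were above day 0 without exception, although 1 of the 32 listed had under 1 FPKM in both day 0 libraries. All 32 cell cycle genes passed as higher, with a median of 1.33, and the count was 32 with each library left out in turn. Mki67, a marker of dividing cells, had 3.75 and 6.56 FPKM at day 0 and 16.96, 19.6 and 18.6 FPKM at irradiated day 9 (1.69 ± 0.20, adjusted p = 4.1e-05). Top2a, whose region is printed above, had 2.91 and 5.24 FPKM and 15.3, 17.1 and 15.5 FPKM (1.78 ± 0.19, adjusted p = 2.2e-05). Mcm5 differed by 1.97 ± 0.20 (adjusted p = 1.7e-05) and Ccnb1, the mitotic cyclin B1, by 1.67 ± 0.17 (adjusted p = 2.1e-05). None of the 32 differed from control day 9 or from irradiated day 3 at the threshold. At irradiated day 3, Mki67 had 12.95, 11.6 and 12.1 FPKM, and at control day 9 19.8, 17.9 and 13.5 FPKM.

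Keratins of the growing hair and pigment genes varied widely between libraries. Of 27 hair follicle genes found, 15 passed the filter on low values, and 7 of these had under 1 FPKM in both day 0 libraries, so that they passed it only through irradiated day 9. The 9 higher of 15 and the hair keratin values are therefore a description, with no test. Krt71, a keratin of the inner root sheath, had 0.917 and 0.061 FPKM at day 0, 0.134, 1.92 and 0.078 FPKM at irradiated day 3, 15.3, 44.1 and 15.9 FPKM at irradiated day 9 and 245, 332 and 21.2 FPKM at control day 9. Krt25, of the same sheath, had 1.03 and 0.017 FPKM at day 0, 0.016, 0.996 and 0 FPKM at irradiated day 3 and 14.1, 35.7 and 16.1 FPKM at irradiated day 9. Krt73, its sheath partner, had 0.309 and 0.031 FPKM at day 0 and 8.85, 19.3 and 11.6 FPKM at irradiated day 9. For all 3 keratins both day 0 values lay below the 3 irradiated day 9 values. Mlana, a melanosome protein, had 0.694 and 1.61 FPKM at day 0 and 4.51, 14.2 and 15.9 FPKM at irradiated day 9 (2.42 ± 0.63, adjusted p = 0.0071), while Mitf, the factor that defines melanocytes, was near day 0 (-0.55 to 0.13). Mlana met the filter only with irradiated day 9 libraries, so its difference and the counts of higher pigment genes are a description. Of 6 pigment genes tested, 2 had under 1 FPKM in both day 0 libraries, and 3 were higher, 5 without the first irradiated library and 1 without any of the other irradiated libraries or the second day 0 library. Without the first day 0 library none was higher, and Mlana had an adjusted p of 0.066.

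Matrix genes were above day 0. Of 23 fibrillar collagen and matrix structure genes, 17 were higher and none lower, with a median of 1.59 at irradiated day 9 and of 2.78 at control day 9. Col1a1, the main collagen chain of skin, had 253 and 973 FPKM at day 0, 2829, 1846 and 1328 FPKM at irradiated day 9 and 3621, 3741 and 2896 FPKM at control day 9. The groups did not overlap, yet the day 0 values differed widely between themselves, and the difference was 1.94 ± 0.56 (adjusted p = 0.013). Col3a1, the collagen of early repair, differed by 1.69 ± 0.52 (adjusted p = 0.017). Col12a1, a fibril-associated collagen, had 2.09 and 6.52 FPKM at day 0 and 114, 55.2 and 25.02 FPKM at irradiated day 9 (3.52 ± 0.55, adjusted p = 2.9e-04). Tnc, tenascin C of provisional matrix (3.40 ± 0.71, adjusted p = 0.00198), Fbln2, an elastic fibre protein (2.60 ± 0.39, adjusted p = 2.3e-04), and Bgn, a small proteoglycan (2.003 ± 0.37, adjusted p = 8.9e-04), were higher. No gene of the collagen list differed between irradiated and control day 9 skin at the threshold, and Col1a1 had a difference of -0.83 ± 0.50 (adjusted p = 0.351). That count of 0 by limma depends on the fit: 2 were lower in irradiated skin under median-of-ratios scaling, quantile normalization or without the first irradiated day 9 library, 4 were lower with the replicate number as a block, 4 lower and 1 higher in a fit of those groups alone, and 17 lower and 1 higher with array quality weights. In the absence of the first day 0 library 5 matrix genes were higher, Col1a1 had an adjusted p of 0.21 and Col3a1 of 0.28; without the first irradiated day 9 library 11 were higher and Col3a1 had 0.0545. In a fit of the 5 libraries alone 9 were higher. Of 10 small leucine-rich proteoglycans, 2 were higher, none lower and 1 near day 0.

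Matrix-cutting enzymes and contractile genes followed different patterns. Of 16 metalloproteinases and inhibitors, 6 were higher (background 31.7%) and 1 lower (background 18.0%). Mmp12, an elastase of macrophages, had 0.489 and 1.63 FPKM at day 0 and 43.2, 42.5 and 20.6 FPKM at irradiated day 9 (4.13 ± 0.72, adjusted p = 5.9e-04), and the membrane-bound Mmp14 differed by 2.28 ± 0.32 (adjusted p = 1.5e-04). Of 10 contractile genes, 1 was higher, 3 lower and 3 near day 0. Acta2, smooth muscle actin of myofibroblasts, was the higher one, with 69.9 and 98.7 FPKM at day 0 and 305, 251 and 138 FPKM at irradiated day 9 (1.39 ± 0.37, adjusted p = 0.00832). Smtn, smoothelin of contractile smooth muscle, was near day 0 (-0.25 to 0.17), and Tpm1, a tropomyosin that skeletal muscle also makes, was lower (-2.17 ± 0.19, adjusted p = 9.6e-06) in the libraries with less muscle RNA. Leaving out the first day 0 library gave 3 metalloproteinases and inhibitors that were higher, and Acta2 had an adjusted p of 0.083.

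Growth factors and receptors of wound repair were higher than day 0 for 8 of 26, lower for 3 and near day 0 for 8, shares close to or below the 31.7%, 18.0% and 41.4% of all genes. Mdk, the heparin-binding factor midkine, had 1.19 and 2.40 FPKM at day 0, 3.02, 3.87 and 3.53 FPKM at irradiated day 3, 24.4, 19.1 and 27.6 FPKM at irradiated day 9 and 52.7, 55.3 and 45.4 FPKM at control day 9. It was above day 0 (3.16 ± 0.24, adjusted p = 5.4e-06) and above irradiated day 3 (2.45 ± 0.22, adjusted p = 3.8e-04), and below control day 9 (-1.09 ± 0.22, adjusted p = 0.0203). Only the last of these was lost when libraries were left out, in 4 of 6 cases. Fgf18, a fibroblast growth factor of resting hair follicles, was below day 0 (-2.15 ± 0.35, adjusted p = 4.0e-04). Pdgfb, the ligand that recruits pericytes, was near day 0 (-0.16 to 0.52), as was the receptor Fgfr1 (-0.45 to 0.68). Fgfr1 passed without the second day 0 library (adjusted p = 0.0483), and 4 members of the list were higher without the first and 5 without the first irradiated day 9 library. Rescaled without mitochondrial and muscle genes, 4 were higher and 5 lower.

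Macrophage genes were often above day 0. Of 24 macrophage and monocyte markers, 15 were higher and none lower, with a median of 1.48. Arg1, the arginase of repair-phase macrophages, which keratinocytes can also make, had 26.3 and 13.4 FPKM at day 0 and 431, 269.9 and 221 FPKM at irradiated day 9 (3.90 ± 0.60, adjusted p = 2.5e-04). Ms4a7, a macrophage membrane protein, was higher by 2.16 ± 0.36 (adjusted p = 4.5e-04), and Lyz2, lysozyme, by 1.86 ± 0.59 (adjusted p = 0.0199). Of 18 T cell and cytotoxic genes, 11 passed the filter on low values, and 9 of these had under 1 FPKM in both day 0 libraries, so that they passed it only through irradiated day 9. Their values against day 0, 7 of 11 higher, are a description. Gzmb, granzyme B of killer cells, had 0.109 and 0.817 FPKM at day 0, 15.3, 8.45 and 15.7 FPKM at irradiated day 9 and 1.29, 0.778 and 7.97 FPKM at control day 9. Its difference from control day 9 was 2.05 ± 0.51 (adjusted p = 0.0427), which was lost in 5 of the 6 fits that left out 1 library, all but that without the third control library, at adjusted p up to 0.184. Control day 9 took no part in the filter that Gzmb passed through irradiated day 9, so this difference is a description too. The list as a whole was not higher than control day 9, with a median difference of -0.11. Of the 11 tested genes, 3 were higher than control day 9 (background 2.23%) and none lower. The 18 listed genes summed to 81.5 to 97.1 FPKM at irradiated day 9 and 95.6 to 206.7 FPKM at control day 9. Gzma, granzyme A, had 0.117 and 1.67 FPKM at day 0 and 11.1, 7.72 and 8.73 FPKM at irradiated day 9. Cd4, the co-receptor of helper T cells, had 0.224 and 0.441 FPKM and 3.16, 4.42 and 4.46 FPKM in the same groups. Of 7 B cell markers 1 passed the filter, so B cells could not be described. Of 12 neutrophil markers tested 3 were higher and none lower, and none was higher without either day 0 library or the first irradiated one, with 1 higher without the second irradiated one. With the first day 0 library left out, 4 macrophage markers and 3 T cell genes were higher (8 macrophage markers in a fit of the 5 libraries alone), and Lyz2 had an adjusted p of 0.33.

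Mast cell genes were above both day 0 and control day 9. Of 9 tested, 5 were higher than day 0 (background 31.7%) and 6 higher than control day 9 (background 2.23%). The 3 with under 1 FPKM in both day 0 libraries passed the filter only through irradiated day 9. The counts of this list are therefore a description. Cma1, a chymase of skin mast cells, had 8.42 and 23.1 FPKM at day 0, 36.6, 51.1 and 57.9 FPKM at irradiated day 3, 35.6, 65.8 and 75.4 FPKM at irradiated day 9 and 7.63, 7.28 and 6.79 FPKM at control day 9. Against control day 9 it differed by 2.80 ± 0.42 (adjusted p = 0.00819), and the protease Mcpt4 by 2.42 ± 0.36 (adjusted p = 0.00819), calls that held with each library left out. The count of 6 fell to 2 without the first or the second control library or without the second or the third irradiated one, and to 3 without the third control library. Against day 0 the differences were 1.92 ± 0.47 (adjusted p = 0.00524) and 1.63 ± 0.41 (adjusted p = 0.00582), and without the first day 0 library no mast cell gene was higher, with adjusted p of 0.09 and 0.07. The whole list summed to 126 to 261 FPKM at irradiated day 9, 53.3 and 87.9 FPKM at day 0 and 32.4 to 43.1 FPKM at control day 9.

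Some alarm cytokines and acute-phase genes were also above day 0, while many were not resolved. Of 26 cytokines and chemokines, 11 were higher (background 31.7%), 1 lower and 14 unresolved, and 2 had under 1 FPKM in both day 0 libraries. Il33, an alarm cytokine of keratinocytes and stromal cells, had 20.05 and 18.3 FPKM at day 0, 284, 198 and 241 FPKM at irradiated day 9 and 89.7, 37.7 and 109.5 FPKM at control day 9. It differed from day 0 by 3.57 ± 0.41 (adjusted p = 3.8e-05) and from control day 9 by 1.72 ± 0.37 (adjusted p = 0.0261). The latter call was lost in 5 of 6 fits that left out 1 library, all but that without the third control library, at adjusted p up to 0.101. Ccl8, which attracts monocytes and T cells, differed from day 0 by 3.11 ± 0.52 (adjusted p = 4.7e-04), and Cxcl9, induced by interferon gamma, by 4.02 ± 0.83 (adjusted p = 0.00188). Of 13 acute-phase and complement genes, 6 were higher (background 31.7%), 1 lower and 6 unresolved. Saa3, serum amyloid A3, had 0.603 and 2.30 FPKM at day 0 and 646, 189 and 326 FPKM at irradiated day 9 (7.22 ± 1.38, adjusted p = 0.00109). Serpina3n, a protease inhibitor, had 40.7 and 58.4 FPKM at day 0, 162, 154 and 215 FPKM at irradiated day 9 and 10.98, 6.71 and 18.3 FPKM at control day 9, and differed from control day 9 by 3.86 ± 0.53 (adjusted p = 0.00563) with each library left out as well. With the first day 0 library left out, 5 cytokines and 1 acute-phase gene were higher and Serpina3n had an adjusted p of 0.14 against day 0. Leaving out an irradiated day 9 library gave 7 cytokines and 3 acute-phase genes (the first), or 1 acute-phase gene and an adjusted p of 0.061 for Serpina3n (the third). Rescaled to nuclear genes 3 acute-phase genes were higher, and without mitochondrial and muscle genes 1.

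Interferon-induced genes were above day 0 and above control skin of the same day. Of 27, 23 were higher than day 0 and none lower, with a median of 1.396 at irradiated day 9, 2.56 at irradiated day 3 and -0.51 at control day 9. Ifit1 had 9.72 and 14.3 FPKM at day 0, 174, 170.2 and 118 FPKM at irradiated day 3, 74.3, 30.3 and 48.5 FPKM at irradiated day 9 and 6.37, 3.71 and 8.93 FPKM at control day 9. Its irradiated day 9 values lay above those of day 0 and control day 9 and below those of irradiated day 3. The difference from day 0 was 1.93 ± 0.59 (adjusted p = 0.0169) and from control day 9 2.80 ± 0.53 (adjusted p = 0.0156). Without the first or the second control library or the third irradiated one, the latter had adjusted p of 0.0545, 0.0848 and 0.0734. Ifit3 had 19.7 and 41.4 FPKM at day 0 and 163, 61.7 and 123 FPKM at irradiated day 9 (1.87 ± 0.63, adjusted p = 0.0277). The sister gene Ifit2 and the interferon-induced Ifi44 differed from day 0 by 2.16 ± 0.51 (adjusted p = 0.00423) and 2.01 ± 0.50 (adjusted p = 0.00558). Of the 27, 22 were higher in irradiated than in control day 9 skin (background 2.23%).

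These interferon calls rest on few libraries, although none of the named interferon-induced genes changed direction in any alternative run. Without the first day 0 library 2 of 27 genes were higher than day 0, without the first irradiated day 9 library 11 and without the third 15. Weighting libraries by their quality left 4, and testing all genes with no filter 14. Adjusted p without the first day 0 library was 0.11 for Ifit1, 0.069 for Ifit2, 0.21 for Ifit3 and 0.065 for Ifi44, and without the first irradiated library 0.059 for Ifit1 and 0.088 for Ifit3; Ifit3 had 0.067 without the third. Against control day 9, 1 gene was higher without the second control library or without the third irradiated one, 2 without the first control library and 5 without the first irradiated one.

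**Figure D5:**
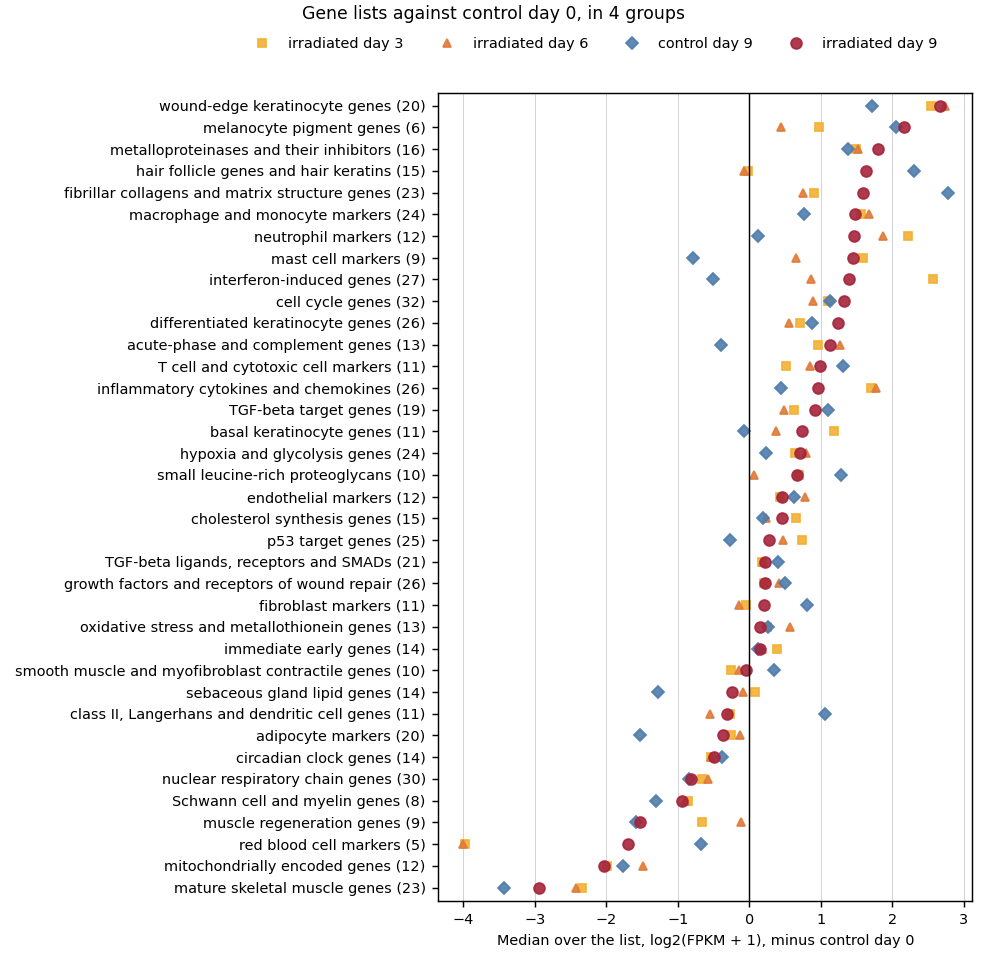
Median difference from control day 0 over each gene list (number of tested genes in brackets), on the log2(FPKM + 1) scale, in irradiated days 3, 6 and 9 and control day 9. All 4 groups share the same 2 day 0 libraries. Interferon-induced genes lie at 1.396 at irradiated day 9 and -0.51 at control day 9, and skeletal muscle genes lie below -2 in all 4 groups.

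Glucose-handling genes were divided between the calls. Of 24 hypoxia and glycolysis genes, 14 were higher, 4 lower and 5 near day 0. Egln3, a hypoxia-induced prolyl hydroxylase, had 20.2 and 29.4 FPKM at day 0 and 186, 162 and 153 FPKM at irradiated day 9 (2.72 ± 0.27, adjusted p = 1.6e-05). Slc2a1, the main glucose transporter of keratinocytes, differed by 2.37 ± 0.24 (adjusted p = 1.8e-05) and Eno1, an enolase, by 2.27 ± 0.18 (adjusted p = 5.4e-06). Ldha (-0.63 to 0.32) and Pkm (-0.23 to 0.45), the last steps of glycolysis, were near day 0. Aldoa, the aldolase that is abundant in muscle, was lower, with 1565 and 1184 FPKM at day 0 and 242, 269 and 272 FPKM at irradiated day 9 (-2.38 ± 0.16, adjusted p = 3.2e-06). Against control day 9, 11 of the 24 were higher in irradiated skin (background 2.23%) and none lower. Among them was Slc2a1 (1.12 ± 0.21, adjusted p = 0.016, and up to 0.085 without the first or the second control or the third irradiated library). The count of 11 was 0 without the second control or the third irradiated library and 1 without the first control library. It was 4 and 5 without the first and second irradiated libraries. The Ldha interval left the bound without the second day 0 library, and 1 member was lower than day 0 without the first.

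Skeletal muscle was the programme furthest below day 0. All 23 tested mature muscle genes passed as lower, with a median of -2.94, while Tnnc2 did not pass the filter on low values. Acta1, skeletal actin, had 10054 and 8582 FPKM at day 0 and 535, 1265 and 1248 FPKM at irradiated day 9 (-3.30 ± 0.41, adjusted p = 6.1e-05). Pvalb, the calcium buffer of fast fibres, was lower, with a difference of -4.73 ± 0.60 (adjusted p = 6.9e-05) and Tnnt3, fast troponin T, of -3.53 ± 0.34 (adjusted p = 1.3e-05). The list was low in every other group too, with medians of -2.34, -2.42 and -3.44 at irradiated days 3 and 6 and control day 9. Among the passing genes with the largest falls outside that list, Pdk4, which holds back glucose oxidation, had 378 and 187 FPKM at day 0, 55.5, 28.9 and 33.6 FPKM at irradiated day 3 and 4.55, 4.99 and 5.98 FPKM at irradiated day 9 (-5.44 ± 0.50, adjusted p = 1.1e-05). Trim63 (-4.56 ± 0.53, adjusted p = 4.2e-05) and Fbxo32 (-4.01 ± 0.55, adjusted p = 1.3e-04), 2 ubiquitin ligases of muscle, were lower. Of 9 muscle regeneration genes, 4 were lower. Myod1, a factor that forms new fibres, had 7.98 and 25.4 FPKM at day 0 and 0.922, 3.49 and 4.37 FPKM at irradiated day 9 (-2.10 ± 0.48, adjusted p = 0.00343). Myog, which acts after it, had 18.3 and 94.3 FPKM at day 0 and 6.86, 9.14 and 12.7 FPKM at irradiated day 9 (-2.06 ± 0.55, adjusted p = 0.00811). The second day 0 library was the higher one for both, and without that second day 0 library, Myod1 had an adjusted p of 0.0507 and Myog of 0.12, and none of the 9 was lower, against 7 without the first. Outside the lists, Retnla, a resistin-like protein of macrophages and fat, had 81.2 and 240.3 FPKM at day 0 and 1.04, 17.1 and 3.22 FPKM at irradiated day 9 (-4.71 ± 0.86, adjusted p = 8.0e-04), and Defb8, a beta-defensin, had 33.4 and 30.2 FPKM and 0.381, 1.65 and 1.06 FPKM (-4.06 ± 0.49, adjusted p = 5.2e-05).

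Genes of respiration were lower as well. All 12 mitochondrially encoded genes and all 30 nuclear genes of the respiratory chain passed as lower, with medians of -2.04 and -0.82. mt-Nd2, a complex I subunit, had 13426 and 7208 FPKM at day 0 and 2012, 2197 and 2258 FPKM at irradiated day 9 (-2.19 ± 0.22, adjusted p = 1.9e-05), and mt-Atp6, of ATP synthase, differed by -2.28 ± 0.18 (adjusted p = 6.2e-06). Cox5a, a nuclear-encoded subunit of complex IV, had 44.9 and 35.4 FPKM at day 0 and 16.6, 16.97 and 20.6 FPKM at irradiated day 9 (-1.11 ± 0.13, adjusted p = 4.5e-05). The muscle list was lower in the same libraries, and its part in these differences was not tested. None of these genes differed from control day 9 or irradiated day 3 at the threshold.

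Most peripheral nerve and blood genes were below day 0, and clock genes were divided. Of 8 Schwann cell and myelin genes, 7 were lower. Mbp, myelin basic protein, had 24.7 and 22.2 FPKM at day 0 and 8.44, 7.45 and 7.32 FPKM at irradiated day 9 (-1.49 ± 0.35, adjusted p = 0.0045), and Prx, the myelin protein periaxin, was lower too (-1.38 ± 0.36, adjusted p = 0.007). When the first day 0 library was left out, 2 of the 8 were lower and Prx had an adjusted p of 0.0531; without the second, 3 were. Of 14 circadian clock genes, 7 were lower (background 18.0%), 2 higher, 2 near day 0 and 3 unresolved. Nr1d1, the clock repressor REV-ERB alpha, had 34.6 and 39 FPKM at day 0 and 6.57, 7.57 and 8.87 FPKM at irradiated day 9 (-2.13 ± 0.22, adjusted p = 1.9e-05), Cry1, another repressor, was higher (0.92 ± 0.12, adjusted p = 6.7e-05), and Clock was near day 0 (-0.05 to 0.35). The labels give no hour of sampling, so time of day cannot be told apart from the groups. With 1 library left out, 4 clock genes were lower without either day 0 library and 3 without the first irradiated one.

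Red blood cell genes had come part of the way back. Hbb-bs, the adult beta globin, had 94.6 and 139.6 FPKM at day 0, 0.676, 4.76 and 0.934 FPKM at irradiated day 3, 0.689 and 0.094 FPKM at irradiated day 6 and 43.1, 30.8 and 25.9 FPKM at irradiated day 9. Irradiated day 9 lay above all values of irradiated days 3 and 6 and below both of day 0. It was higher than irradiated day 3 (3.66 ± 0.44, adjusted p = 0.00479) and lower than day 0 (-1.79 ± 0.50, adjusted p = 0.0103). Hba-a1, an alpha globin with a near-identical copy, behaved alike in both tests (3.19 ± 0.36, adjusted p = 0.00376; -1.76 ± 0.41, adjusted p = 0.00369). Of the 5 red blood cell genes, 3 were higher than at irradiated day 3 (background 0.410%), also with each library of these groups left out, and 4 were lower than day 0. Control day 9 had 45.97, 77.3 and 111 FPKM of Hbb-bs, and irradiated day 9 did not differ from it at the threshold (-1.15 ± 0.44, adjusted p = 0.151). Without the second day 0 library, 2 of the 5 genes were lower than day 0 and Hbb-bs had an adjusted p of 0.073. The reason for these globin differences was not tested, and the labels do not record how much blood was drained from the tissue.

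Across all lists, 601 genes were tested, and 274 of them lay at least 1 log2 from day 0 at irradiated day 3, 210 above and 64 below. At irradiated day 9, 231 of the 274 still lay at least 1 log2 from day 0 on the same side, 23 lay between 0.5 and 1, 12 were within 0.5 and 8 were over 0.5 on the other side. Both differences use the same day 0 libraries, so these counts describe levels and are not a test. None of the 12 within 0.5 met the definition of near day 0, since their intervals reached past 1 log2; Fos and Tnf were among them, chosen here after their values were seen, with differences of 1.16 and 1.27 at irradiated day 3 and of 0.08 and 0.16 at irradiated day 9.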

How the data were processed

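Total RNA of mouse skin was extracted with TRIzol, made into Smart-Seq2 libraries and read as paired ends on a NovaSeq 6000, per the labels' protocols. The counting tool is not given in the sources used here, while the submitters' processing notes name HISAT2 2.2.1 and mm10. The authors deposited FPKM values for 34140 genes in 17 libraries, each matched to its sample by the column name. With GENCODE M21 lengths, 90.934% of the values above 0 came out as whole fragments within 0.01, which gave the depth of each library and an alternative count model on 12400 genes (6139 passing).

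Genes with at least 1 FPKM in at least 2 of the 5 libraries compared were fitted on log2(FPKM + 1), with 1 mean per group over all 17 libraries, by limma 3.58.1 (trend, R 4.3.3), and p-values were adjusted by Benjamini-Hochberg over 14152 genes. The fit was tested on simulated data. Errors are standard errors of the difference. Start-site regions were matched by symbol. The members and the 38 gene lists were chosen with earlier results of these data known. Named genes were taken by a rule: the most changed passing genes, up to 4 passing members of a list by size of change, up to 2 members near day 0 by level, and a short list given always. The rule gave 200 genes, of which 123 were used. Some named genes are not reported here.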

Additional observations from a re-analysis of the deposited data

Results flagged for a closer look

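Of the 123 genes named, 23 differed between irradiated and control skin at day 9 (limma, adjusted p under 0.05 over all genes), and each is given as the log2(FPKM + 1) difference, irradiated minus control. Among mast cell, cytotoxic and antigen-presenting genes, Cma1 was at 2.80, Mcpt4 at 2.42, Gzma at 2.30, Gzmb at 2.05 and H2-Aa at -2.52. Gzma and Gzmb met the filter on low values only with irradiated day 9 libraries, so their differences are a description. The median difference over the 11 tested genes of their list was -0.11. Interferon-induced genes were Ifit1 at 2.80, Ifit2 at 2.23, Ifit3 at 2.81 and Ifi44 at 2.17. Secreted alarm and acute-phase genes were Ccl8 at 2.22, Il33 at 1.72 and Serpina3n at 3.86. The p53 targets were Cdkn1a at 1.14, Ccng1 at 0.82 and Psrc1 at 0.82. Glucose-handling genes were Egln3 at 1.08, Slc2a1 at 1.12 and Eno1 at 0.63. The adipocyte hormone Adipoq was at 2.53 and the basal adhesion gene Dsg3 at 1.37. Lower in irradiated skin were Tgfb2 at -0.90, Mdk at -1.09 and the contractile gene Smtn at -0.40. H2-Aa, Cma1, Mcpt4, Serpina3n, Ccng1 and Psrc1 passed in all 6 fits that left out 1 library of these groups, and Eno1 in none of them. All 23 kept their sign in every alternative run. The muscle list took 0.541% to 1.10% of summed FPKM in irradiated and 0.586% to 0.999% in control day 9 skin, so those ranges overlapped.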

How the results depend on the processing

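The count of genes passing between irradiated day 9 and control day 0 was 7032, and 4890 to 6721 with 1 library left out. Genes higher were 2662 to 4605 and genes lower 2094 to 2399 in those fits, with the lowest higher count without the first day 0 library. Rescaled without mitochondrial and muscle genes, which was chosen after seeing the data, 2347 were higher and 3945 lower. Median-of-ratios scaling gave 3217 higher and 3512 lower, and quantile normalization 3226 and 3588. In a fit of the 5 libraries alone 5175 passed, 3250 higher and 1925 lower, and 5186 passed with array quality weights. Genes near day 0 were 24907 with no filter on low values and 3036 at a minimum of 5 FPKM, where other numbers of genes were tested. Against control day 9, 382 genes passed at the minimum of 5, 1078 after quantile normalization, 5242 with array quality weights, and 60 to 667 with 1 library left out. Against irradiated day 3, 240 passed with a pseudocount of 5, 66 with no filter, 73 at the minimum of 5, 698 in a fit of these groups alone, 3391 with array quality weights, and 14 to 86 with 1 library left out. Irradiated day 6 against day 0 gave 19 in a fit of these groups alone, 1886 with array quality weights and 3280 to 5489 with 1 library left out. Except where fewer or more genes or libraries entered, the cause was not tested. With the replicate number as a block, 6988 genes passed, 4391 higher and 2597 lower. The deviations of same-numbered libraries correlated at -0.25 and -0.281 over genes. With 2 day 0 libraries, the day 0 deviations mirror each other, so these correlations cannot show whether libraries were paired. The labels do not say that replicate numbers mark shared animals, so the main fit had no block. H2-Aa and Ifit3 missed the threshold with the block (adjusted p = 0.0518 and 0.0544, limma). Of the named genes, 46 of 63 higher, 22 of 31 lower, 11 of 27 near day 0 and 2 of 2 unresolved kept their call in every alternative run for them, and none changed sign past the threshold. With 2 day 0 libraries, the spread at day 0 limits every value against it.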
